A study of Mus musculus with 8 samples.

Results

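The genes described here encode 9 high-mobility-group (HMG) chromatin proteins of the mouse: Hmgn1, Hmgn2, Hmgn3, Hmgn5, Hmga1, Hmga2, Hmgb1, Hmgb2 and Hmgb3. They were taken by symbol from the deposited table of 35976 gene symbols. All 9 were found and all 9 passed the filter on low counts, among 16847 genes tested. The set was chosen by a measured value, the level of Hmgn3, which was much higher in the libraries labelled H2A.Z DKO, so every member's value from that comparison is given as a description, with no p-value, and any count of calls there supports nothing. The comparison of Mll2 KO with Mll2 WT took no part in that choice, and its tests are reported.

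The samples were full-grown mouse oocytes, fully grown egg cells of the ovary whose stockpile of transcripts serves the early embryo, and their polyadenylated RNA was sequenced. There were 2 libraries in each of 4 groups, and each library came from a pool of about 20 oocytes without their zona pellucida, amplified with a SMART-Seq kit. The groups were oocytes labelled as a double knockout (DKO) of the genes for H2A.Z.1 and H2A.Z.2, H2A.Z control oocytes given as wild type, Mll2 knockout (KO) oocytes, and Mll2 wild-type (WT) oocytes. Strain, age, the alleles deleted, any Cre driver and the number of animals are not stated in the sources used. The histone variant H2A.Z replaces H2A in nucleosomes, often near start sites, and MLL2, encoded by Kmt2b, methylates lysine 4 of histone H3. Nothing in the labels ties the replicates to different animals. The p-values therefore rest on the spread between libraries, which may be technical.

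HMG proteins are abundant, small chromatin proteins that bind DNA or nucleosomes with little sequence preference. HMGN proteins bind the nucleosome itself and counteract the compaction of chromatin by linker histone H1. HMGA proteins hold short AT-hook motifs that sit in the minor groove of AT-rich DNA, and HMGB proteins bend DNA with their HMG boxes. In oocytes, chromatin carries an oocyte form of linker histone, H1foo, and is remodelled during growth as transcription is shut down.

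Totals ran from 20309233 to 30087863 counts per library, and between 21077 and 22212 genes had at least 1 count. Values are CPM, the counts of a gene scaled to a common library size with the trimmed mean of M-values (TMM). The median gap between replicates over all tested genes was 0.30 on the log2 scale in Mll2 KO and 0.17 in each of the other groups. The targeted genes were examined first. Kmt2b had 8.73 and 9.27 CPM in Mll2 KO, against 41.9 and 42.4 CPM in Mll2 WT. Kmt2b also differed between the control groups, with 13.7 and 15.4 CPM in H2A.Z controls. H2afz, which encodes H2A.Z.1, went against its label, with 322 and 317 CPM in the libraries labelled DKO, against 23.9 and 29.9 CPM in H2A.Z controls. In the Mll2 line H2afz had 19.4 and 15 CPM in KO, against 7.04 and 7.09 CPM in WT. H2afv, which encodes H2A.Z.2, had 285 and 294 CPM under the DKO label, against 108 and 107 CPM in H2A.Z controls. Directions in the H2A.Z line below are therefore those of the label alone.

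Promoters of 2 HMGN genes are shown. Hmgn5 was taken because it gave the largest change of the set in Mll2 KO, and MLL2 is known to have a domain that binds unmethylated CG dinucleotides. Hmgn2 is an HMGN gene that was not called in Mll2 KO. Both sequences run 5′ to 3′ on the gene's own strand, from 250 bases before to 50 bases after the start site, and CG dinucleotides are in capitals. They are from RefSeq, on GRCm38.p6. Hmgn5 lies on the minus strand, with its window at chrX:109013331-109013630, and Hmgn2 lies on the minus strand, with its window at chr4:133967942-133968241.
Hmgn5: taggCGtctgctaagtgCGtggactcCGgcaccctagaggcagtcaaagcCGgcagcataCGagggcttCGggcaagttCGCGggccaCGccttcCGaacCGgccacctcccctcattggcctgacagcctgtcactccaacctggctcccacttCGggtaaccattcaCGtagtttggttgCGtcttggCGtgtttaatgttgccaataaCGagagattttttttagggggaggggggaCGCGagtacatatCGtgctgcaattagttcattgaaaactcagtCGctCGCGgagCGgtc
Hmgn2: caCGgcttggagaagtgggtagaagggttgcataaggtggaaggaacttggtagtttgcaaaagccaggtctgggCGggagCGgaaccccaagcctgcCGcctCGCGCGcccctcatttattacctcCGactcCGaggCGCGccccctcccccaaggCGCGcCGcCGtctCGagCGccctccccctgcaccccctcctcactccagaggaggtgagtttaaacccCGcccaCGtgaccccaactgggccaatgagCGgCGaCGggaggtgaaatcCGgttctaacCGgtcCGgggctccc

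The Hmgn5 window held 23 CG dinucleotides and the Hmgn2 window 25. The motif searched was CG, which reads the same on both strands, and 94.6% of 32851 promoters held at least 1, with a median of 7. Over 15880 promoters of tested genes the median was 17, and 65.2% of these had fewer CG than Hmgn5, while 70.2% had fewer than Hmgn2. The promoter of Hmgn1, which is not shown, held 37 CG, and 91.1% of the promoters of tested genes had fewer. Among the 8 genes of the set with a promoter in the table (all except Hmgn3), Hmga2 had the fewest, 12. The second Hmgb1 promoter had the most, 45. Of the tested genes with a promoter, the 2068 that were lower in Mll2 KO had a median of 17 CG in their first listed promoter, against 18 over all 12440. Every promoter of these 8 genes except that of Hmga2 held more CG than the median for tested genes.

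The first question was which of these genes differed when Mll2 was deleted. Hmgn5, a nucleosome-binding protein gene on the X chromosome whose product binds linker histone, fell the most. Its RNA was counted 53 and 76 times in Mll2 KO and 454 and 518 times in Mll2 WT, which is 1.79 and 2.55 CPM in Mll2 KO, against 15 and 17.1 CPM in Mll2 WT. Both Mll2 KO libraries lay far below both Mll2 WT libraries. Hmgn5 fell by 2.88 ± 0.22 on the log2 scale (SE), a level 7.38-fold lower in Mll2 KO (edgeR adjusted p = 1.38e-07). Only 239 of 16847 tested genes, or 1.42%, had a more negative log2 difference. The call held under all 14 alternatives tried, with log2 differences from -3.2 to -2.64. It held with the Mll2 line fitted without the H2A.Z libraries (log2 -2.88, edgeR adjusted p = 5.22e-05).

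Hmgn1, the HMGN gene with the highest CPM in the Mll2 line, whose product modulates nucleosome compaction and histone modification, was called higher. It had 298 and 434 CPM in Mll2 KO, against 285 and 265 CPM in Mll2 WT. The lower Mll2 KO library was only slightly above the higher Mll2 WT library, and the second Mll2 KO library stood apart. The log2 difference was 0.41 ± 0.14 (edgeR adjusted p = 0.0308). The call was lost without Mll2 KO 2 (log2 0.08, edgeR adjusted p = 0.565), without Mll2 WT 1 or 2 (0.0835 and 0.22), with DKO 1 or 2 left out (0.0573 and 0.0574), with H2A.Z control 1 or 2 left out (0.0516 and 0.0513), and with the Mll2 line fitted alone (0.11). Without Mll2 KO 1 it was 0.67 (edgeR adjusted p = 1.58e-06). The size of the Hmgn1 difference thus depended on which Mll2 KO library was kept.

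Hmgn3, a nucleosome-binding protein gene with a role in endocrine cells of the mouse, had 5.63 and 9.2 CPM in Mll2 KO, against 6.71 and 4.42 CPM in Mll2 WT. The groups overlapped. The log2 difference of 0.41 ± 0.22 did not pass the test (edgeR adjusted p = 0.171), although it did without Mll2 KO 1 (log2 0.74, edgeR adjusted p = 0.00385). Without Mll2 KO 2 it was -0.02. Hmgn2, the HMGN gene whose product is closest in build to that of Hmgn1, had 59.7 and 68.1 CPM in Mll2 KO, against 53.9 and 61.9 CPM in Mll2 WT, which also overlapped (log2 0.14 ± 0.11, edgeR adjusted p = 0.354).

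**Figure D1:**
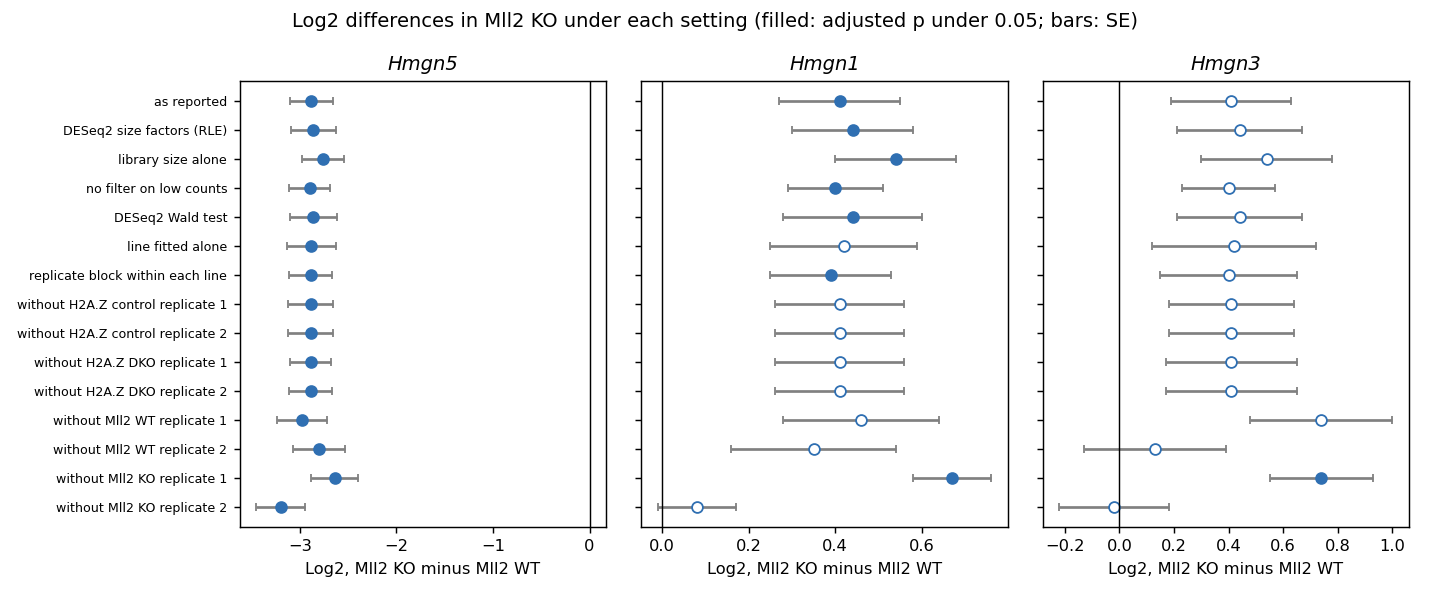
Log2 difference between Mll2 KO and Mll2 WT (horizontal axis, bars are SE) for Hmgn5, Hmgn1 and Hmgn3 under the reported setting and 14 alternatives, with filled points at an adjusted p under 0.05. Hmgn5 stays between -3.2 and -2.64, while Hmgn1 drops to 0.08 and Hmgn3 to -0.02 without Mll2 KO 2.

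Neither HMGA gene passed the test in Mll2 KO. Hmga1, the AT-hook gene broadly active in dividing cells, had 10.3 and 8.26 CPM in Mll2 KO, against 7.53 and 6.82 CPM in Mll2 WT. Those libraries did not overlap, and the log2 difference was 0.37 ± 0.21 (edgeR adjusted p = 0.198). Hmga2, the AT-hook gene of embryonic growth whose loss gives the pygmy mouse, had 19.3 and 26 CPM in Mll2 KO on either side of 21.6 and 21.4 CPM in Mll2 WT (log2 0.08 ± 0.16, edgeR adjusted p = 0.749).

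No HMGB gene passed the test in Mll2 KO. Hmgb2, an HMG-box gene known for high levels in germ cells and dividing cells, had 502 and 513 CPM in Mll2 KO, against 455 and 471 CPM in Mll2 WT (log2 0.13 ± 0.10, edgeR adjusted p = 0.329). Hmgb1, which is also an inflammatory signal when released from cells, had 115 and 112 CPM in Mll2 KO, against 119 and 118 CPM in Mll2 WT (log2 -0.06 ± 0.10, edgeR adjusted p = 0.668), and its difference was 0.06 with library size alone. Hmgb3, the X-linked HMGB gene known from blood progenitors, had 29.8 and 36.1 CPM in Mll2 KO, against 26.5 and 27.4 CPM in Mll2 WT (log2 0.29 ± 0.14, edgeR adjusted p = 0.12). Hmgb3 passed without Mll2 KO 1 (log2 0.43, edgeR adjusted p = 0.00879) and with library size alone as the scaling (log2 0.41, edgeR adjusted p = 0.0378). Hmgb2 passed with library size alone too (log2 0.26, edgeR adjusted p = 0.0374).

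In all, 1 of 9 members rose, 1 fell and 7 did not pass the test in Mll2 KO. Over all 16847 tested genes, 30.6% were called, 14.4% higher and 16.2% lower, so 2 of 9 is no larger a share than the background. The libraries of the Mll2 groups did not overlap for 6 of 9 members, 4 higher and 2 lower. Of all tested genes, 64.2% did not overlap, 32.2% higher and 32% lower. The median log2 difference was 0.14 over the members and 0.02 over all tested genes. The call on Hmgn5 is set apart by its size and not by the count of members called.

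**Figure D2:**
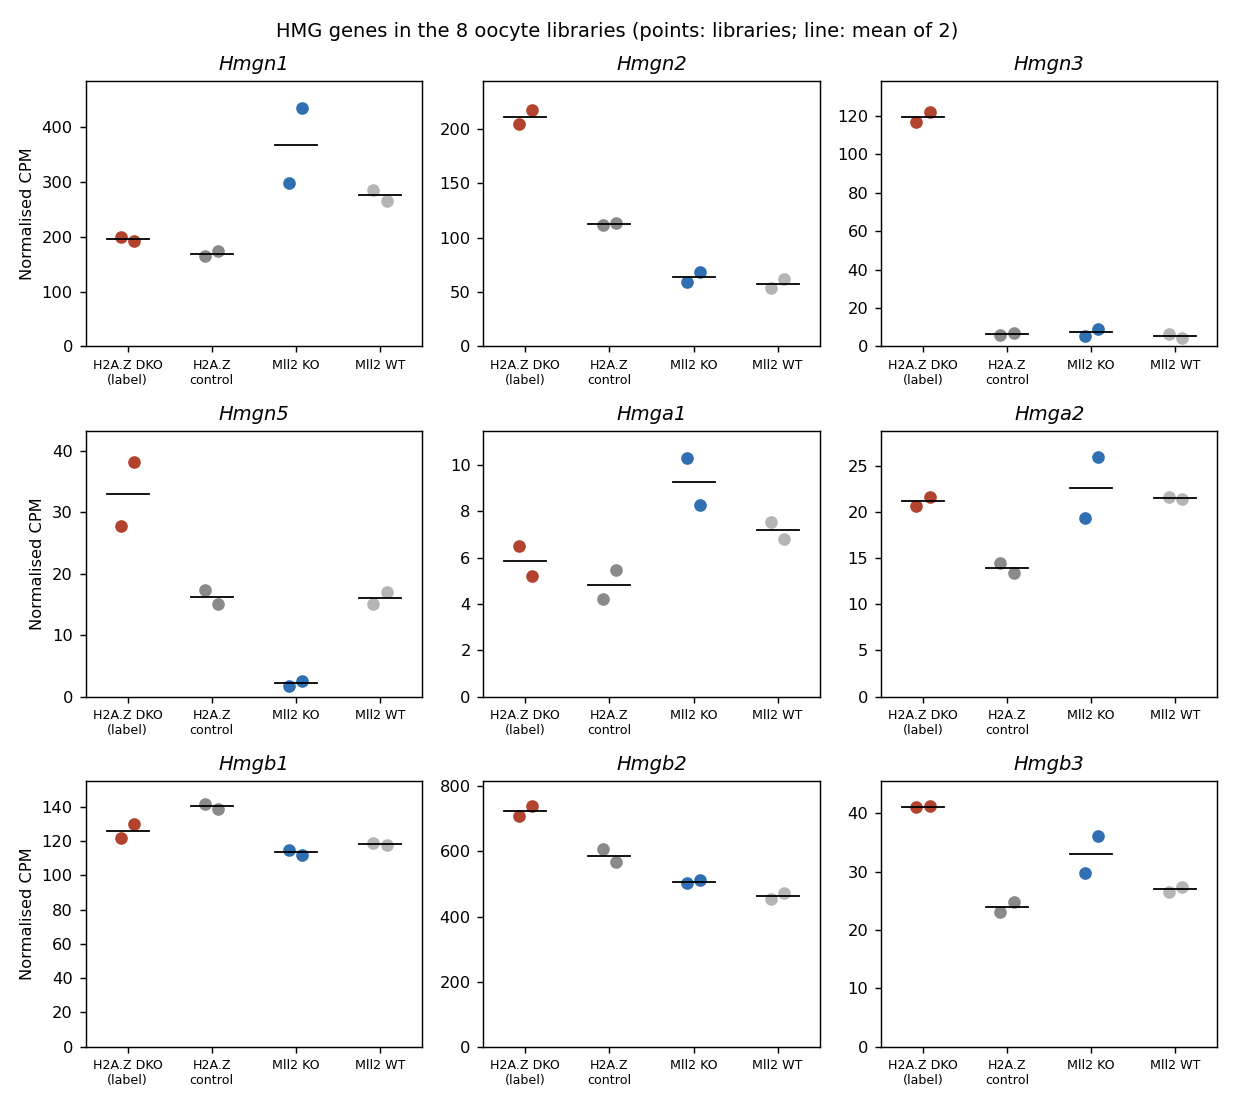
Normalised CPM (vertical axis, from 0) of each of the 9 genes in the 8 libraries, with 1 point per library and a line at the mean of each group. Hmgn3 stands at 117 and 122 CPM under the DKO label and below 10 CPM in every other library, and Hmgn5 is at 1.79 and 2.55 CPM in Mll2 KO.

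The second comparison set the libraries labelled DKO against H2A.Z controls and is the one that picked the set. Hmgn3 was counted 2643 and 2576 times in the libraries labelled DKO and 117 and 179 times in H2A.Z controls, which is 117 and 122 CPM under the DKO label, against 6.05 and 7.13 CPM in H2A.Z controls. Both libraries labelled DKO were above all 6 other libraries of the series. The log2 difference was 4.18 ± 0.22 (18.1-fold), and 56 of 16847 genes had a larger one. Without either library of this line, and under the other alternatives, it ran from 4.05 to 4.31. H2A.Z control and Mll2 WT oocytes had like levels of Hmgn3, with 6.05 and 7.13 CPM in H2A.Z controls and 6.71 and 4.42 CPM in Mll2 WT.

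The other HMGN genes differed by much less under the DKO label. Hmgn5 had 27.7 and 38.2 CPM under the DKO label, against 17.3 and 15.1 CPM in H2A.Z controls (log2 1.03 ± 0.19), the opposite direction to Mll2 KO. Hmgn2 had 205 and 218 CPM under the DKO label, against 112 and 114 CPM in H2A.Z controls (log2 0.90 ± 0.11). Hmgn1 had 199.7 and 192 CPM under the DKO label, against 164 and 174 CPM in H2A.Z controls (log2 0.21 ± 0.14), a difference of 0.09 relative to the median of all genes. Both libraries labelled DKO lay above both controls for each of the 4 HMGN genes, as they did for 43.4% of all tested genes.

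Of the HMGA genes, Hmga2 had 20.7 and 21.6 CPM under the DKO label, against 14.5 and 13.4 CPM in H2A.Z controls (log2 0.60 ± 0.17). Hmga1 had 6.52 and 5.22 CPM under the DKO label, against 4.19 and 5.46 CPM in H2A.Z controls, and its groups overlapped. Of the HMGB genes, Hmgb3 had 41.1 and 41.2 CPM under the DKO label, against 23 and 24.8 CPM in H2A.Z controls (log2 0.78 ± 0.14). Hmgb2 had 709 and 741 CPM under the DKO label, against 608 and 567 CPM in H2A.Z controls (log2 0.30 ± 0.10). Hmgb1 was the single member with lower values, 122 and 130.2 CPM under the DKO label, against 142 and 139 CPM in H2A.Z controls (log2 -0.16 ± 0.10).

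**Figure D3:**
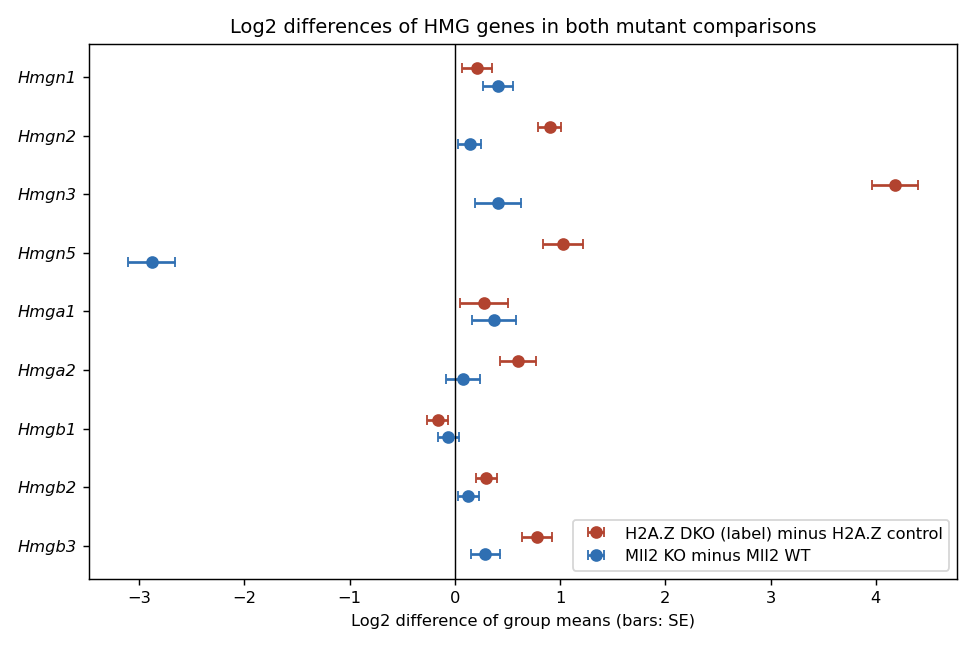
Log2 difference of group means (horizontal axis, bars are SE) for each gene in the libraries labelled DKO against H2A.Z controls and in Mll2 KO against Mll2 WT. Hmgn3 is at 4.18 under the DKO label and 0.41 in Mll2 KO, and Hmgn5 is at 1.03 and -2.88.

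Under the DKO label 6 of 9 members were past an adjusted p of 0.05 in the higher direction and 0 in the lower one with edgeR, and 0 were lower at an unadjusted p under 0.05 or with DESeq2. The number higher was 4 to 6 over the alternatives, and 1 member, Hmgb1, was past it in the lower direction with library size alone, with the line fitted alone, and without Mll2 KO 1 or 2. Over all tested genes 30.9% were past it, 19.4% higher and 11.5% lower, and nothing is read from the count because this comparison chose the set. The libraries did not overlap for 7 members in the higher direction and 1 in the lower one, where 70.3% of all tested genes did not overlap, 43.4% higher and 26.9% lower. The median log2 difference was 0.60 over the members and 0.12 over all tested genes. The median of all genes became 0.00 under the DKO label and 0.14 in Mll2 KO when only library size was used. Relative to the median of 0.12, Hmgn3 differed by 4.06, Hmgn5 by 0.91, Hmgn2 by 0.78, Hmgb3 by 0.66, Hmga2 by 0.48, Hmgb2 by 0.18 and Hmgb1 by -0.28. With library size alone, 45.5% of all calls under the DKO label were higher and not 62.9%, and in Mll2 KO 62.9% were higher and not 47.1%.

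The families differed in composition between lines. Levels per kb of the longest coding transcript in GENCODE M21 were used to compare genes, since counts rise with length. Hmgn1 made up 72.5% and 76.4% of the summed HMGN level in Mll2 KO and 70.3% and 66.7% in Mll2 WT. In the H2A.Z line, Hmgn1 made up 26.1% and 24% under the DKO label and 42.4% and 43.6% in H2A.Z controls. Hmgn2 had the larger share in both groups of that line. In H2A.Z controls this order rests on transcript length, since in CPM Hmgn1 was above Hmgn2. Under the DKO label Hmgn2 was above Hmgn1 in CPM as well, at 205 and 218 CPM against 199.7 and 192 CPM. Hmgn3 took up 23.9% in each library labelled DKO, against 2.45% and 2.79% in H2A.Z controls, and between 1.74% and 2.59% in the Mll2 line. Hmgn5 took up 0.488% and 0.504% in Mll2 KO, against 4.17% and 4.83% in Mll2 WT. The summed HMGN level was 352 and 368 CPM per kb under the DKO label, against 178 and 184 CPM per kb in H2A.Z controls. In the Mll2 line it was 190.3 and 262 CPM per kb in KO, against 186 and 183 CPM per kb in WT.

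In the HMGB family the share of Hmgb2 moved little, at between 75.2% and 80.2% of the summed HMGB level per kb in all 8 libraries. Hmgb1 made up 12.8% and 13.1% under the DKO label, against 17% and 17.6% in H2A.Z controls. Hmgb3 made up 7.01% and 6.73% under the DKO label, against 4.48% and 5.1% in H2A.Z controls. Hmga2 made up between 49.6% and 68.5% of the HMGA level, the lowest of the families in sum, at 5.89 to 10.9 CPM per kb in all 8 libraries.

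**Figure D4:**
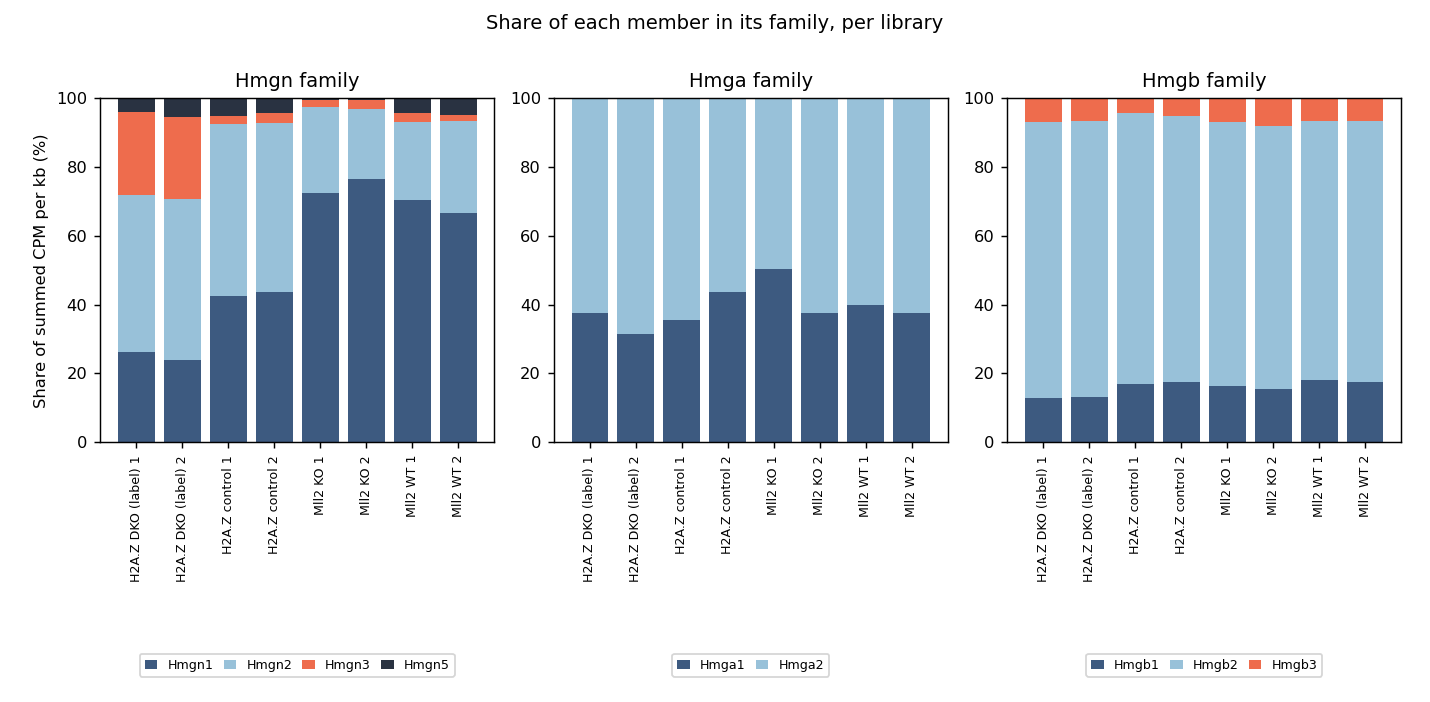
Share of each gene in the summed CPM per kb of its family (vertical axis, %), with 1 bar per library. Hmgn3 takes up 23.9% of the HMGN bar in each library labelled DKO and under 3% elsewhere, while Hmgb2 fills between 75.2% and 80.2% of every HMGB bar.

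Hmgb2 had the highest level of the 9 in every group, at 276 ± 8.53 CPM per kb under the DKO label, 223 ± 11.2 in H2A.Z controls, 193 ± 2.6 in Mll2 KO and 176 ± 3.58 in Mll2 WT (SD, n = 2 each). In Mll2 KO it overlapped Hmgn1, at 169 ± 44.2 CPM per kb. Hmgn3 had rank 4 of the set under the DKO label, at 86 ± 2.52 CPM per kb just below Hmgn1. It had rank 7 in H2A.Z controls (4.74 ± 0.551), rank 7 in Mll2 KO (5.34 ± 1.81) and rank 8 in Mll2 WT (4 ± 1.18). Its range overlapped that of Hmga1 in both Mll2 groups and that of Hmga2 in Mll2 KO. Hmgn5 was last in Mll2 KO, at 1.12 ± 0.279 CPM per kb, and at rank 6 in Mll2 WT, at 8.3 ± 0.729. The other neighbours in the order did not overlap, with 2 libraries each. All these ranks rest on the length of the longest coding transcript. Coding transcripts ran from 261 to 2174 bases for Hmgn1 and from 855 to 1391 bases for Hmgn3. Under the DKO label the lower Hmgn1 library was at 88.2 CPM per kb and the higher Hmgn3 library at 87.8 CPM per kb.

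The control groups of the lines also differed. H2A.Z controls had 112 and 114 CPM of Hmgn2, against 53.9 and 61.9 CPM in Mll2 WT (log2 0.97 ± 0.11), and 164 and 174 CPM of Hmgn1, against 285 and 265 CPM in Mll2 WT (log2 -0.70 ± 0.14). Hmga2 was lower in H2A.Z controls as well (log2 -0.63 ± 0.16). Hmgn5 did not differ by more than its error (log2 0.01 ± 0.19). Line, and any difference in how the lines were bred or processed, cannot be told apart here.

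Genes with a pattern like that of Hmgn3 were sought over the 8 libraries by the root mean square difference of log2 CPM, each gene centred on its own mean. Among 8072 candidates with at least 10 CPM in some group, the nearest were Pramef25 (0.43), Zscan4d (0.54), Zscan4c (0.555), Serpinb1a (0.563), Plac1 (0.599) and Ddit4l (0.628), where the median candidate was at 1.91. Their Pearson correlations with Hmgn3 over the 8 libraries were 0.947 to 0.984. These follow from picking the nearest genes and add no support. Some of these genes, such as Pramef25 and Ddit4l, reached 10 CPM only under the DKO label. The likeness rests on the contrast of the 2 libraries labelled DKO with the other 6. Zscan4c and Zscan4d are genes of the 2-cell embryo and Pramef25 is of the PRAME family, and reads of near-identical family members cannot be assigned with certainty. Plac1, an X-linked placental gene, had 89 and 109 CPM under the DKO label, against 3.88 and 11.9 CPM in H2A.Z controls.

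**Figure D5:**
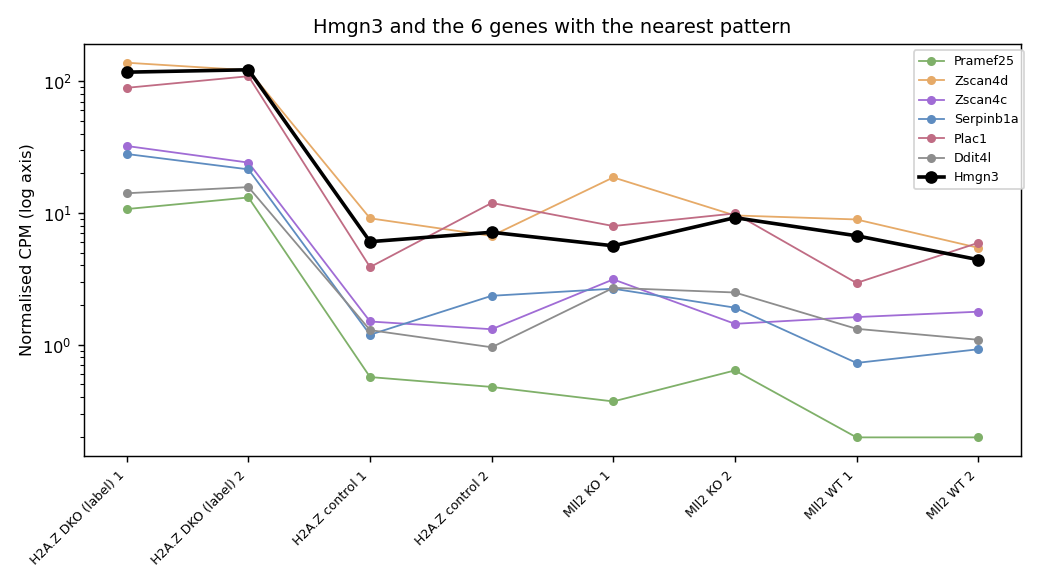
Normalised CPM (log axis) of Hmgn3 and the 6 genes nearest to it in pattern, in the 8 libraries, with lines only to guide the eye. All 7 are highest in the libraries labelled DKO, where Hmgn3 has 117 and 122 CPM and Zscan4d 138 and 121 CPM.

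Genes that work beside the HMG proteins were taken from lists, whose counts stand beside the shares of all tested genes, 14.4% higher and 16.2% lower in Mll2 KO, and 19.4% higher and 11.5% lower under the DKO label. Of 18 tested genes of other HMG-box proteins, 4 rose and 3 fell in Mll2 KO, and 5 were higher and 1 lower under the DKO label, with medians of 0.08 and 0.24, against 0.02 and 0.12 for all genes. Mael, an HMG-box gene of transposon silencing in germ cells, fell to 36.7 and 28.5 CPM in Mll2 KO, against 106 and 109.6 CPM in Mll2 WT (log2 -1.72 ± 0.13, edgeR adjusted p = 1.08e-07). Ubtf, the HMG-box factor of ribosomal RNA transcription, rose to 10.9 and 13.2 CPM in Mll2 KO, against 4.79 and 4.55 CPM in Mll2 WT (log2 1.37 ± 0.19, edgeR adjusted p = 7.23e-05). Tox3, an HMG-box gene, had 78.7 and 79.7 CPM under the DKO label, against 27.9 and 37.4 CPM in H2A.Z controls (log2 1.28 ± 0.14). Tox3 rose in Mll2 KO as well (log2 0.56 ± 0.13, edgeR adjusted p = 0.00531). Hmgb4 had no counts in any library.

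Linker histones, which HMGN proteins displace from nucleosomes, had 0 of 7 tested genes called higher by edgeR and 1 lower in Mll2 KO, with 2 higher at an unadjusted p under 0.05 and 0 called higher by DESeq2. Under the DKO label edgeR called 3 higher and 0 lower, and DESeq2 called 1 higher and 0 lower, with 0 lower at an unadjusted p under 0.05. H1foo, the oocyte linker histone gene and by far the most abundant of the list, fell by 0.33 ± 0.12 on the log2 scale in Mll2 KO (edgeR adjusted p = 0.0446). H1foo had 5331 and 4368 CPM in Mll2 KO, against 6035 and 6145 CPM in Mll2 WT. Under the DKO label the summed linker histone level was 7583 to 7618 CPM, against 7567 to 7636 CPM in H2A.Z controls. H1f0, a replacement linker histone gene, was higher by 0.65 ± 0.12 under the DKO label on the log2 scale. The others that edgeR called higher there, Hist1h1c and Hist1h1e, had low counts. Hist1h1c was counted 27 and 19 times under the DKO label, against 3 and 9 times in H2A.Z controls. Hist1h1e was counted 52 and 33 times, against 17 and 10 times in H2A.Z controls.

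Of 22 histone chaperone genes, 6 rose and 5 fell in Mll2 KO, and 7 were called higher and 3 lower under the DKO label. Anp32e, whose product removes H2A.Z from nucleosomes, fell by 1.34 ± 0.21 in Mll2 KO (edgeR adjusted p = 0.000171), and Anp32a, a related acidic chaperone gene, had a log2 difference of -1.27 ± 0.20 under the DKO label. Neither fell in the other line. Anp32a rose by 0.63 ± 0.17 in Mll2 KO (edgeR adjusted p = 0.0118), and Anp32e had a log2 difference of 0.17 ± 0.22 under the DKO label. Daxx, which deposits histone H3.3, rose in Mll2 KO by 0.99 ± 0.15 (edgeR adjusted p = 0.000208) and was higher by 0.83 ± 0.17 under the DKO label. The median of the list was 0.05 in Mll2 KO and 0.21 under the DKO label, against 0.02 and 0.12 for all genes.

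The list around Lin28 and let-7, the microRNA family that represses Hmga2, had 1 of 11 genes higher and 3 lower in Mll2 KO, and 5 higher and 2 lower under the DKO label. Its medians were -0.03 in Mll2 KO and 0.32 under the DKO label, against 0.02 and 0.12 for all genes. Trim71, a let-7 target that represses mRNAs, fell by 1.42 ± 0.17 in Mll2 KO (edgeR adjusted p = 6.53e-05), and its log2 difference was -1.07 ± 0.17 under the DKO label. Lin28b, which blocks let-7 maturation, fell by 0.60 ± 0.19 in Mll2 KO (edgeR adjusted p = 0.0233). Of 8 genes for HMGB1 receptors and export, 3 were tested. In Mll2 KO 0 were called by edgeR, 0 by DESeq2 and 0 at an unadjusted p under 0.05. For the DKO label 0 were called by edgeR and 0 by DESeq2, with 1 higher and 1 lower at an unadjusted p under 0.05. Of 4 genes reported as HMGN targets in other mouse cells, only Slc6a9, a glycine transporter gene, had enough counts. Slc6a9 was higher by 0.97 ± 0.21 under the DKO label on the log2 scale. It rose by 0.65 ± 0.19 in Mll2 KO (edgeR adjusted p = 0.0261), with 115 and 199 CPM in Mll2 KO, against 98.2 and 102 CPM in Mll2 WT.

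The identity of the cells was checked with marker lists. All 12 oocyte markers were tested, with sums of 27797 to 31363 CPM under the DKO label, 27219 to 28529 CPM in H2A.Z controls, 17521 to 19608 CPM in Mll2 KO and 19916 to 24831 CPM in Mll2 WT. In Mll2 KO edgeR called 0 higher and 4 lower, with 0 higher at an unadjusted p under 0.05 and 0 by DESeq2. For the DKO label edgeR called 2 higher and 0 lower, with 3 lower at an unadjusted p under 0.05 and 3 by DESeq2. Of the 14 granulosa and cumulus markers, 10 were tested. In Mll2 KO 3 rose and 2 fell, with sums of 107 to 109 CPM in Mll2 KO and 98.5 to 101 CPM in Mll2 WT. The largest part of the sum in Mll2 KO was Nr5a2, at 58.2 and 56.5 CPM, against 34.5 and 33.8 CPM in Mll2 WT (log2 0.75 ± 0.12, edgeR adjusted p = 0.00023). Fshr, the receptor for follicle-stimulating hormone, had 18.7 and 18.9 CPM under the DKO label, against 1.29 and 0.597 CPM in H2A.Z controls. In Mll2 KO Fshr had 7.24 and 7.69 CPM, against 0.991 and 0.593 CPM in Mll2 WT (log2 3.23 ± 0.30, edgeR adjusted p = 1.05e-06). Cyp19a1, of the same list, went the other way, with 27.9 and 30 CPM in Mll2 KO, against 47.8 and 51.2 CPM in Mll2 WT (log2 -0.78 ± 0.12, edgeR adjusted p = 0.000171). Amh and Ptx3 were at 0 in all 4 libraries of the Mll2 line. Under the DKO label 4 were called higher and 1 lower, with sums of 146 to 147 CPM under the DKO label and 103 to 109 CPM in H2A.Z controls. Gja1 was the marker called lower, at 0.0443 and 0.19 CPM under the DKO label, against 0.155 and 1.87 CPM in H2A.Z controls, where the groups overlapped. Foxl2, a defining granulosa gene, had at most 0.237 CPM in any library. Theca and stroma markers summed to between 2.54 and 6.38 CPM in all libraries, and of 3 tested, 1 rose and 1 fell in Mll2 KO. For the DKO label edgeR called 0 and DESeq2 called 0, with 1 at an unadjusted p under 0.05. Of blood, immune and endothelial markers 2 were tested, of which 1 fell in Mll2 KO and 1 was called higher under the DKO label. The 4 globin genes of that list were at 0 in all libraries, and its sums were 28.8 to 32.1 CPM under the DKO label and 21.5 to 23.1 CPM in H2A.Z controls, and 35.3 to 42 CPM in Mll2 KO and 34.9 to 35.9 CPM in Mll2 WT. Most of each sum was a single gene, Pecam1. Pecam1 had 29.3 and 27.4 CPM under the DKO label, against 18.4 and 20.1 CPM in H2A.Z controls. In Mll2 KO Pecam1 had 33.5 and 40.8 CPM, against 33.1 and 32.3 CPM in Mll2 WT. The part of these markers in the results on the HMG genes was not tested. In pooled oocytes, fewer cells of a kind and less RNA per cell cannot be told apart.

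Positions and copies limit some of these values. On mm10, Hmgn3 lies on chromosome 9 at 83109942 to 83147358, Hmgn5 on chromosome X at 109004537 to 109013380, Hmgn1 on chromosome 16 at 96121588 to 96127725 and Hmgn2 on chromosome 4 at 133964739 to 133967991, all on the minus strand. The counts cover whole genes, so isoforms of Hmgn3 are not separated. No other annotated transcript in GENCODE M21 shared 90% identity over 200 bases with Hmgn3. Hmgn5 had 2 such copies and Hmgn1 had 4, all pseudogenes and none a row of the count table. Hmgb1 had 125, Hmgn2 had 25, Hmgb3 had 14 and Hmgb2 had 11, so reads of these genes, and of Hmgn5 and Hmgn1, cannot be assigned with certainty. None of the 14 copies of Hmgb3 was a row of the count table. Rows with such a match had at most 6.19% of the counts of Hmgb1 in any library, 5.59% of those of Hmgn2 and 1.28% of those of Hmgb2. For Hmgb1 most of these were counts of Ppm1e (1070), another gene that matched over 303 bases. The pseudogene rows Gm21596 and Hmgb1-rs17 had 13 and 6 counts. For Hmgb2 all were counts of Tmx3 (1193), another gene that matched over 929 bases, and the pseudogene row Gm13237 had 0. Of the 3 transcripts that matched part of Hmga2, 1 belongs to Cox16, a gene that shares a stretch of 320 bases at 93.4% identity. The Cox16 row had up to 388% of the counts of Hmga2 in a library. A pseudogene row named for Hmga2, Hmga2-ps1, had 22.4 and 23.5 CPM under the DKO label, against 47.9 and 51.4 CPM in H2A.Z controls, and its similarity to Hmga2 was not measured here. Antisense neighbours with counts overlap Hmga1 (AI413582) and Hmgb1 (Uspl1), and the sources used do not state whether counting used strand.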

How the data were processed

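RNA of 8 libraries of mouse full-grown oocytes was measured, each library from about 20 pooled oocytes and 200 pg of amplified cDNA, per the labels' protocols. The values used are the whole-number counts that the authors deposited for each gene symbol, without normalisation. The submitters' processing notes name build mm10 and the tools RSEM 1.3.1, STAR 2.7.3 and Trim Galore 0.6.4. What each did, the annotation used and whether counts were rounded are not stated there.

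All 8 libraries entered one fit of 4 group means in edgeR 4.0.16 under R 4.3.3, with filterByExpr by group, TMM scaling and the robust quasi-likelihood test. P-values were Benjamini-Hochberg adjusted over 16847 genes and called under 0.05. The fit had 4 residual degrees of freedom. The SE of a log2 difference was derived from the F statistic. With 2 libraries a group, no exact permutation test can reach the threshold, so none was run. Replicate numbers were not used as pairs, since deviations correlated by 0.0395 in the H2A.Z line and -0.0221 in the Mll2 line. DESeq2 1.42.0 was an alternative. Copies were searched with BLAST 2.17.0. Sequences are from RefSeq on GRCm38.p6, and positions from RefSeq.

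The members and lists were chosen with earlier results of these data known. The genes named are the 9 members, the targeted genes, genes from among the up to 3 called with the smallest p per list and comparison, and the 6 genes nearest to Hmgn3 in pattern. Not every called gene that this rule covers is named. Hmgb4, Foxl2, Amh, Ptx3, Cox16 and the rows read for copies and overlaps were named after their values were seen. The search for copies of Hmga1 is not reported here.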

Additional observations from a re-analysis of the deposited data

Results flagged for a closer look

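The log2 difference under the DKO label minus that in Mll2 KO is given here for 3 members. They were kept because this difference had an adjusted p under 0.05 in edgeR, a rule that uses the comparison that picked the set. The difference was 3.91 ± 0.29 (SE) for Hmgn5, for which both libraries labelled DKO lay above their controls and both Mll2 KO libraries lay below Mll2 WT. It was 3.76 ± 0.31 for Hmgn3 and 0.75 ± 0.16 for Hmgn2. These differences contain the comparison that picked the set, so they are a description and not a test. The groups of 2 libraries were too small for a check of single libraries that stand apart.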

How the results depend on the processing

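Alternatives were 2 other scalings, no filter on low counts, DESeq2, each line fitted alone, a replicate block within each line, and each of the 8 libraries left out. With the replicate block, 2305 genes were higher and 2663 lower in Mll2 KO, and 1 member was higher and 1 lower, so it changed no call on a member there. For the DKO label it gave 5 members higher, where 6 were called without it. The number of members lower in Mll2 KO, Hmgn5, was 1 under every alternative. The number higher, 1 as reported, was 3 with library size alone, 0 with the line fitted alone, and 0 to 3 with a library left out. With a library left out, the genes higher in Mll2 KO ran from 990 (without Mll2 WT 2) to 3351 against 2428 as reported, with 1270 without Mll2 WT 1. The genes lower in Mll2 KO ran from 1691 (without Mll2 WT 2) to 3468 against 2730. Under the DKO label the genes higher were 2063 with library size alone and 1496 to 3188 with a library left out, against 3269. Leaving out DKO 1 or 2 gave 1634 and 1890, leaving out either H2A.Z control gave 1637 (the first) and 1496, and leaving out Mll2 WT 2 gave 1820. The genes lower were 3485 with the line alone and 1115 to 3381 with a library left out, against 1929. Leaving out DKO 1 or 2 gave 1115 and 1191, leaving out either H2A.Z control gave 1176 (the first) and 1146, and leaving out Mll2 KO 1 or 2 gave 3381 and 3378. With the line alone, 48.6% of calls under the DKO label were higher, against 62.9% as reported. Leaving out 1 library left a group with a lone library, assumed to vary like the others. Fitting a line alone changes the filter, scaling and spread together, and the cause of each other change was not tested. In the H2A.Z line every member kept its direction under all alternatives. Among members not called in Mll2 KO, Hmgn3, Hmga2 and Hmgb1 had log2 differences of both signs across the alternatives. Low counts limit Hmgn5 in Mll2 KO, at 53 and 76, and Hmga1, at 81 to 306 a library.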
